A study of Mus musculus with 3 samples.

Results

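The EGR, NR4A and IER immediate early genes were followed in mouse bone marrow (BM) during treatment with leukocyte cell-derived chemotaxin 2 (LECT2), a cytokine that the liver secretes into the blood. The 9 members were Egr1, Egr2, Egr3, Nr4a1, Nr4a2, Nr4a3, Ier2, Ier3 and Ier5. They were found by their symbols among the 17239 named genes of the deposited tables, and each had a single row. The study asked how LECT2 acts on haematopoietic stem cells, and turned to the BM transcriptome in a search for secreted factors that might carry its effect. Recombinant LECT2 was injected under the skin of C57BL/6 mice aged 6 to 8 weeks, once daily at 300 μg per kg, for 3 or 5 days, and the library labelled 0 days is the reference without LECT2. For the schedule of 5 days the study states that mice were killed a few hours after the last injection. It does not repeat this for the sequenced mice. BM cells were flushed from the femur, tibia, pelvis and humerus, and 1 RNA-sequencing library was analysed per time point. A supplementary legend of the study calls the sequenced material mononuclear cells, a fraction that holds few mature neutrophils. The number of mice behind a library, and whether the mice of 0 days received a vehicle, are not given in the sources used here.

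Immediate early genes are genes whose transcription starts within minutes of a stimulus, without the need for newly made protein. Growth factors, stress and inflammatory signals act through kinases such as ERK and through transcription factors already present in the cell, of which SRF with its ELK partners and CREB are the best known. EGR1, EGR2 and EGR3 are zinc-finger transcription factors that bind GC-rich sites, and the NAB proteins repress them. NR4A1, NR4A2 and NR4A3 are orphan nuclear receptors whose activity is set by how much of them is made. In the myeloid lineage EGR1 and EGR2 are known for macrophage differentiation, and NR4A1 for the Ly6C-low monocyte. IER2 and IER5 are related nuclear proteins, IER5 a partner of the heat shock factor HSF1, and IER3 is an NF-kB target known for effects on cell survival.

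The library of 0 days had 15523952 reads on genes, that of 3 days 15146983 and that of 5 days 15514673. The 10 most abundant rows took 12.5%, 10.4% and 5.38% of these reads. Levels are given as RPKM, reads scaled to gene length and to the library total, and changes as a log2 ratio after adding 0.1 RPKM, a scale on which ratios of weakly expressed genes come out too small. All 9 members reached at least 1 RPKM in 1 of the libraries of each comparison, the minimum for a gene to be counted. A gene was counted as lower or higher from a 2-fold difference. The 95% intervals are exact for the read counts (Poisson for a level, Clopper-Pearson for a ratio). They cover counting error only, not the spread between mice. Reads copied by PCR and lacking molecular identifiers need not come from separate molecules, so that the intervals may be too narrow even for counting error. With 1 library per time point, no difference has a replicate check and no test between time points was possible.

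Promoter sequences show what letters the members have in common beside their shared speed of induction. Windows from 250 bases before to 50 bases after the start site were found in RefSeq (GRCm38.p6) for 6 members, Egr2, Nr4a1, Nr4a2, Nr4a3, Ier3 and Ier5, and 5 windows are printed, 1 for each of 5 genes with letters of an SRF, CREB or NF-kB site. Each is written 5′ to 3′ along the gene. Capitals mark the CArG box (the letters that SRF binds), the CRE half-site TGACG or CGTCA (the core of the letters that CREB binds) and the NF-kB letters.
Egr2 (chr10:67537619-67537918, + strand): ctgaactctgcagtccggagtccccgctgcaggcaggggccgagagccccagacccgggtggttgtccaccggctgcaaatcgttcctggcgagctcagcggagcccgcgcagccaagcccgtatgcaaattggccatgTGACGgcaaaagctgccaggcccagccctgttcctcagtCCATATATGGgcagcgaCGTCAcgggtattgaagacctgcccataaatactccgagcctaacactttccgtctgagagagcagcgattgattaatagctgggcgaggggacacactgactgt
Nr4a1 (chr15:101266596-101266895, + strand): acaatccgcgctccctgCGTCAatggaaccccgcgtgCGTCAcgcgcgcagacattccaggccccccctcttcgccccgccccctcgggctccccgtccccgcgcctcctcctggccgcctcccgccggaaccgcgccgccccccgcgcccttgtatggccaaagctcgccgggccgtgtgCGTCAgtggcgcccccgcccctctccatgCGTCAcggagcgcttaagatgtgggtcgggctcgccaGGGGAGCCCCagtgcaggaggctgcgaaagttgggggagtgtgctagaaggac
Nr4a2 (chr2:57123954-57124253, − strand): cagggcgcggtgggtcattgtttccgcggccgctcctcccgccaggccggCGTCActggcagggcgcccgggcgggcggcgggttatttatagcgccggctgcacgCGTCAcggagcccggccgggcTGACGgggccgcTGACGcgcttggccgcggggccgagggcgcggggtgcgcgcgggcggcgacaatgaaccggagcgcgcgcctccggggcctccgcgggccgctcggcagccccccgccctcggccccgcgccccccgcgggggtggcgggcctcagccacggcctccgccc
Nr4a3 (chr4:48045055-48045354, + strand): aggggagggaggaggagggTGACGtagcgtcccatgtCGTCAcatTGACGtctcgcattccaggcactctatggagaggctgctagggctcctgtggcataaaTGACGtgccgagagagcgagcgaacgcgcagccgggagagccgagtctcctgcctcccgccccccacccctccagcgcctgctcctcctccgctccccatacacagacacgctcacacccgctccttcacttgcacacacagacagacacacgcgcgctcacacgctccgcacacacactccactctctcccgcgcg
Ier3 (chr17:35821463-35821762, + strand): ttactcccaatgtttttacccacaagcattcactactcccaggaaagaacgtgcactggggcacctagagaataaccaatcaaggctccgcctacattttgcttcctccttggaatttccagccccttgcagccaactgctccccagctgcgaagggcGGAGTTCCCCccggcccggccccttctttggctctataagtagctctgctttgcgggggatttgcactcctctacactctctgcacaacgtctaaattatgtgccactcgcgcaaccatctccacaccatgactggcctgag
The Egr2 window, 1 of 5 listed for this gene, held the CArG box CCATATATGG between bases 72 and 63 before the start site, flanked by a CRE half-site on either side. The windows at its other start sites held the same box and half-sites, another CArG box (CCTTTTTTGG), or NF-kB letters. A CArG box was found in 1.63% of all 32817 mouse promoter windows of this length, and was seen in no window of the NR4A members, Ier3 or Ier5. Each of the 3 NR4A windows held 4 CRE half-sites. At least 1 half-site was present in 20.8% of all windows, and at least 4 in 0.232%. The whole CRE, TGACGTCA, which contains the half-site, was present in 1.79% of windows and in none of the windows of these 6 genes. The site that NR4A receptors bind as monomers (NBRE, AAAGGTCA) was present in 1.51% of windows and also in none of them. The EGR site GCGNGGGCG was present in the Nr4a1 and Nr4a2 windows and in 5.56% of all windows. Ier3 held NF-kB letters, GGAGTTCCCC, between bases 92 and 83 before its start site, and 8.46% of all windows held such letters. The letters matched in Nr4a1, GGGGAGCCCC, span its start site. All motifs were searched on both strands. A match in letters is a description, and binding was not measured.

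The members span a broad range of gene structures. In the GENCODE M21 annotation of GRCm38, Ier2 (chr8:84661331-84662852) and Ier5 (chr1:155096361-155099636) have 1 exon each, and both lie on the − strand. Ier3 (chr17:35821684-35822923, + strand) has 2 exons, as do Egr2 (chr10:67535475-67542188, + strand) and Egr3 (chr14:70077203-70082614, + strand). Nr4a1 (chr15:101254269-101274795, + strand), Nr4a2 (chr2:57106830-57124003, − strand) and Nr4a3 (chr4:48045153-48086447, + strand) each have 8 exons in their longest transcript. The labels name the mm8 build for the deposited values, so these positions do not belong to the build of the counts. The deposited tables list lengths close to the longest GENCODE transcript for Egr2, Nr4a1, Ier2, Ier3 and Ier5. They list 1416 bases for Egr3 and 1884 bases for Nr4a3, where the longest GENCODE transcripts have 3940 and 5720 bases. The RPKM of Egr3 and Nr4a3 is per these shorter lengths. This bears on their level against other genes and against the 1 RPKM minimum, on the weight of the 0.1 RPKM added before the ratio, and on their values with the length trend removed. It does not bear on the ratios of reads between time points.

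Before treatment the group was dominated by 3 abundant genes, 1 from each family. At 0 days Ier2 stood at 317 RPKM (95% interval 310 to 325), Nr4a1 at 317 RPKM (312 to 323) and Egr1 at 284 RPKM (279 to 289). These levels were above those of 98.5%, 98.5% and 98.3% of the named genes with reads. The intervals of Ier2 and Nr4a1 overlapped, and Egr1 was below both. Ier3 followed at 148 RPKM, Ier5 at 46.7, Nr4a2 at 13.2, Egr2 at 5.33, Egr3 at 4.87 and Nr4a3 at 1.09, with only 32 reads. Among these neighbours in the order of levels, only the intervals of Egr2 and Egr3 overlapped. Egr1 made up 96.5% of the summed RPKM of the EGR members and Nr4a1 95.7% of that of the NR4A members. In the IER family the sum was shared by Ier2 with 62.0%, Ier3 with 28.8% and Ier5 with 9.12%.

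**Figure D1:**
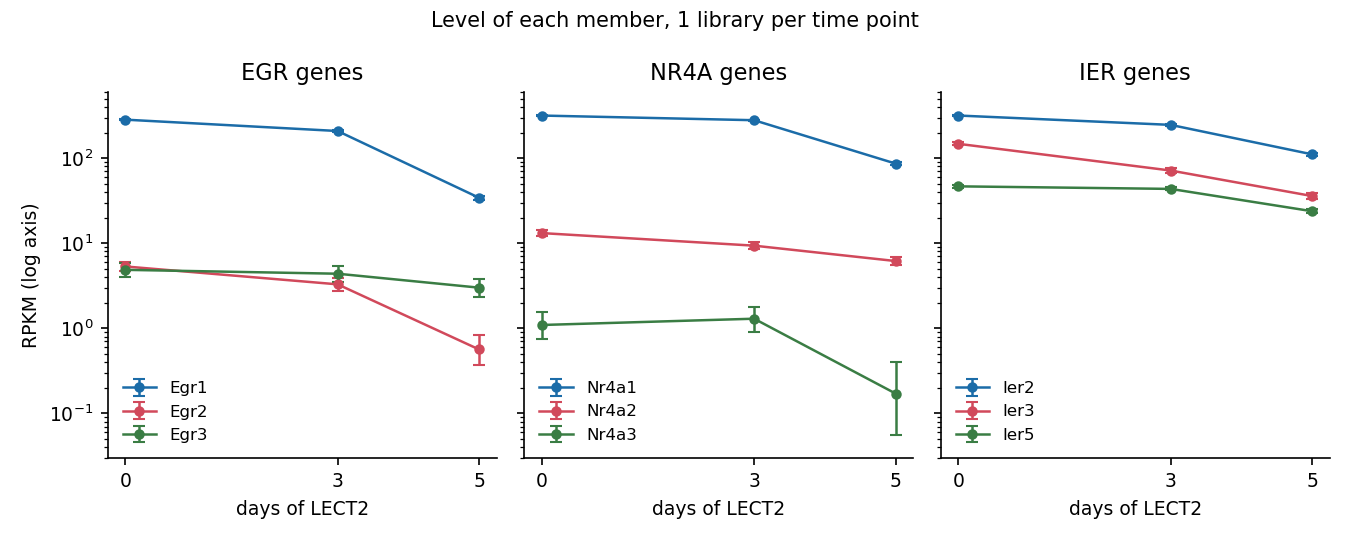
Level of each member in RPKM (log axis) against the days of LECT2, in a panel for each family, with 1 library per time point. Points are the deposited RPKM and bars the 95% exact Poisson interval of the read count. Egr1, Egr2 and Nr4a3, the last with 5 reads at 5 days, drop steeply between 3 and 5 days, while Egr3 stays between 4.87 and 3.00 RPKM.

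The group as a whole took a smaller share of the BM transcriptome at each later time point. Its 9 genes held 39495 reads before LECT2, 30261 after 3 days and 9897 after 5 days. As a share of all reads on genes this was 0.254% (0.252 to 0.257), then 0.200% (0.198 to 0.202) and then 0.0638% (0.0625 to 0.0651). Most of the loss therefore lay between 3 and 5 days. The summed RPKM of the EGR members went from 294 to 216 and 37.8, that of the NR4A members from 331 to 290 and 92.7, and that of the IER members from 511 to 362 and 171. At 5 days this left 12.9% of the level of 0 days for EGR, 28.0% for NR4A and 33.4% for IER. In bulk BM, fewer cells that express a gene and less RNA of it per cell cannot be told apart.

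After 3 days of LECT2 the differences were small for most members, and Ier3 alone was lower by at least 2-fold. Thus 1 of 9 members was at least 2-fold lower, where 2.41% of 11322 genes were, and no member was at least 2-fold higher, where 4.08% of genes were. Of the members, 8 had a ratio below 0 and the median log2 ratio was −0.36, against 0.09 for all genes. After 5 days 7 of 9 members were at least 2-fold lower, where 5.91% of 11494 genes were. Of these 7, Egr2 and Nr4a3 reached the 1 RPKM minimum only in the library of 0 days, where they were higher, so that their place among the lower genes is partly set by the minimum. None was at least 2-fold higher, where 15.5% of genes were. All 9 ratios were below 0, with a median of −1.87 against 0.32 for all genes. The exceptions to the 2-fold count were Egr3 and Ier5, and Ier5 lay at the edge with a log2 ratio of −0.97. The comparison of 5 with 3 days does not use the library of 0 days. In it 5 of 9 members were at least 2-fold lower, where 3.46% of 11372 genes were, and none was at least 2-fold higher, where 1.95% of genes were. Here too Egr2 and Nr4a3, 2 of the 5, reached the minimum only in the earlier library. The median log2 ratio was −1.15, against 0.25 for all genes.

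**Figure D2:**
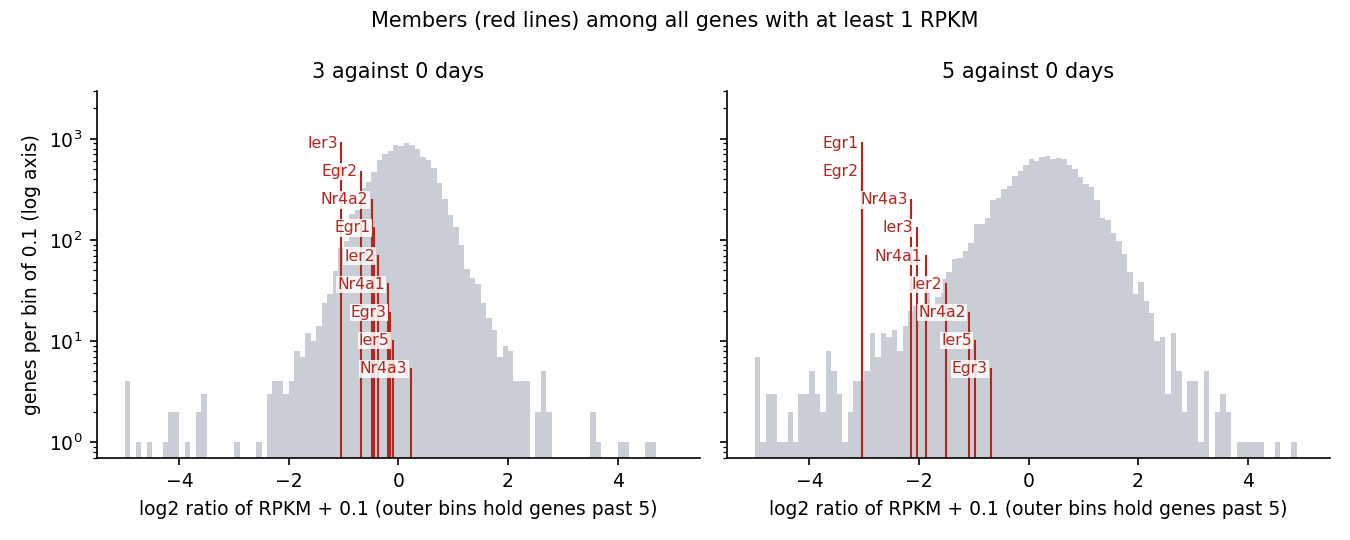
Number of genes per bin of 0.1 in the log2 ratio of RPKM + 0.1 (grey, log axis) for 3 against 0 days (left) and 5 against 0 days (right), over genes with at least 1 RPKM in either library. Red lines mark the 9 members, whose heights have no meaning. At 3 days they lie between −1.04 and 0.23, and at 5 days between −3.05 and −0.68, below the median of all genes at 0.32.

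The size of these ratios depends in part on how the libraries are scaled. Scaling by TMM factors, under which the median of all genes at 5 days was 0.00, gave 8 of 9 members at least 2-fold lower at 5 days (10.1% of all genes) and 7 of 9 in the comparison of 5 with 3 days (4.91% of all genes). It also changed the balance of all genes at 5 days, from 679 lower and 1786 higher to 1161 lower and 816 higher. Longer genes had higher ratios than shorter genes. The median log2 ratio at 5 days went from −0.44 in the shortest 10% of genes to 0.85 in the longest 10%, and the members are of lengths between. Removal of this length trend left 8 of 9 members past 2-fold at 5 days, all of them lower (7.62% of all genes), and none at 3 days (1.75% of all genes lower).

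The EGR genes held both the lowest and the highest log2 ratio of the group at 5 against 0 days, though intervals overlapped at each end. The interval of Egr3, the highest, contains that of Ier5, and the interval of Nr4a3 contains the ratio of Egr1. Egr1 had 13531, 9711 and 1632 reads at the successive time points. Its level was 284, then 209 and then 34.2 RPKM, so that at 5 days 12.1% of the level of 0 days was left. The log2 ratio was −0.44 (−0.48 to −0.41) at 3 days and −3.05 (−3.13 to −2.98) at 5 days, an 8.26-fold lower level, and 85.5% of the log2 difference arose after 3 days. Only 58 of the 11494 genes had a lower ratio at 5 days. Egr1 was still abundant then, above 84.1% of the named genes with reads.

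Egr2, the close relative of Egr1, took much the same course at a far lower level. It had 246, 148 and 26 reads, at 5.33, 3.29 and 0.564 RPKM. Its log2 ratio was −0.68 (−1.0 to −0.40) at 3 days and −3.03 (−3.88 to −2.66) at 5 days. From the reads alone, without the added 0.1 RPKM, the log2 ratio of Egr1 minus that of Egr2 at 5 days was 0.19, with an interval from −0.40 to 0.84 that includes 0. With a pseudocount of 1 RPKM, large beside its level at 5 days, the log2 ratio of Egr2 was −2.02. The intervals of the levels of Egr2 and Egr3 overlapped at 0 and at 3 days, and at 5 days Egr2 lay below Egr3 with no overlap.

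Egr3 changed least of the 3. It had 107, 94 and 66 reads, at 4.87, 4.38 and 3.00 RPKM, and kept 61.7% of its starting level. Its log2 ratio of −0.15 at 3 days had an interval from −0.57 to 0.26 that includes 0, and took the opposite sign, 0.07, with the length trend removed at the listed length of 1416 bases. At 5 days the log2 ratio was −0.68 (−1.16 to −0.24). The log2 ratio of Egr1 minus that of Egr3 was −2.35 (−2.82 to −1.88), taken from the reads alone, and that of Egr2 minus that of Egr3 was −2.55 (−3.33 to −1.78). Neither interval includes 0. The share of Egr3 in the summed EGR level rose from 1.66% to 7.95%, and that of Egr1 went from 96.5% to 90.6%. Egr4, the remaining gene of the family, had 6 reads at 0 days and none later.

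Among the NR4A genes, Nr4a1 carried almost all of the level and almost all of the difference. Nr4a1 had 12474, 10729 and 3396 reads, at 317, 280 and 86.4 RPKM. At 3 days it was the most abundant of the 9 members, with a log2 ratio of only −0.18 (−0.22 to −0.14). At 5 days the log2 ratio was −1.87 (−1.93 to −1.82), a 3.67-fold lower level. Of this difference 90.3% arose after 3 days. Nr4a1 remained above 94.6% of the named genes with reads at 5 days.

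Nr4a2 differed from Nr4a1 in its timing. It had 648, 450 and 304 reads, at 13.2, 9.37 and 6.18 RPKM, an almost even decline in which 54.9% of the log2 difference arose after 3 days. At 3 days it was lower than at 0 days by more than Nr4a1 was, with log2 ratios of −0.49 (−0.67 to −0.31) and −0.18, and the ratio of Nr4a1 minus that of Nr4a2 was 0.31 (0.13 to 0.49). At 5 days the order was the other way round. The log2 ratio of Nr4a2 was −1.08 (−1.29 to −0.89), and the ratio of Nr4a1 minus that of Nr4a2 was −0.79 (−0.99 to −0.58). The interval of Nr4a2 spans the 2-fold line. With the length trend removed the ratios at 5 days were −1.54 for Nr4a2 and −2.21 for Nr4a1, in the same order.

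Nr4a3 was near the limit of what this depth can show. It had 32, 37 and 5 reads, at 1.09, 1.30 and 0.171 RPKM. Its log2 ratio at 3 days, 0.23 (−0.48 to 0.97), was the only one of the group above 0, with an interval that includes 0. At 5 days the log2 ratio was −2.14 with the pseudocount, and the interval of the ratio of the reads ran from −4.39 to −1.31. From the reads alone, the difference in log2 ratio between Nr4a1 and Nr4a3 at 5 days was not detectable at this depth, at 0.80 with an interval from −0.57 to 2.52.

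**Figure D3:**
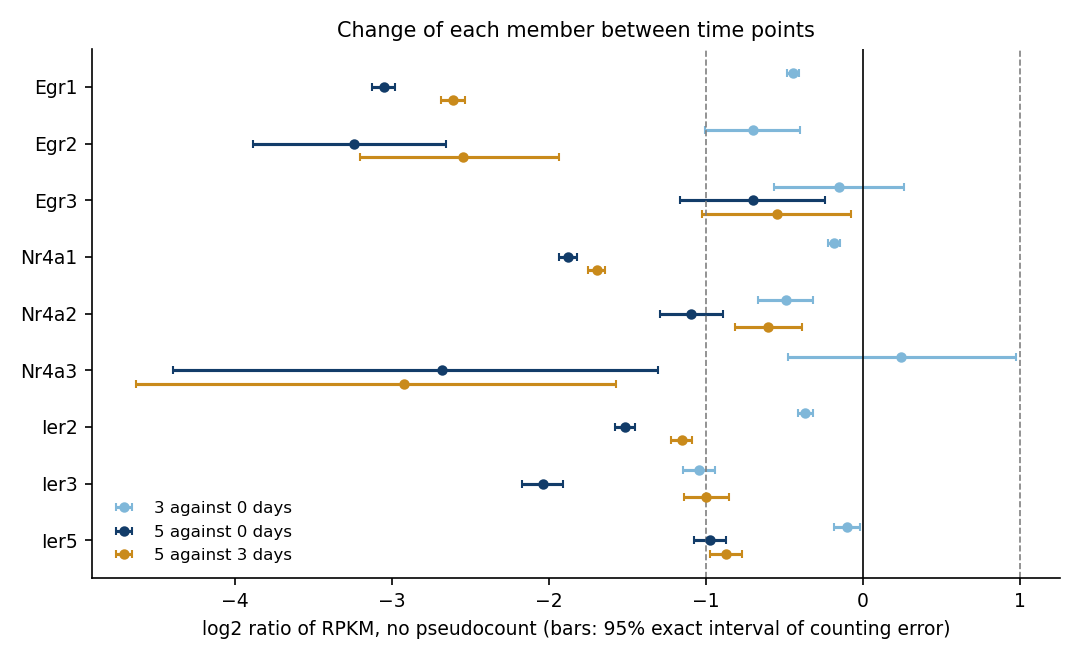
log2 ratio of RPKM of each member for 3 against 0, 5 against 0 and 5 against 3 days, computed without a pseudocount, with the 95% exact interval of counting error as bars and 2-fold differences as dashed lines. Intervals are narrow for Egr1, Nr4a1 and Ier2 and widest for Nr4a3, which has 5 reads at 5 days. In the comparison of 5 with 0 days the whole interval lies past 2-fold for Egr1, Egr2, Nr4a1, Nr4a3, Ier2 and Ier3.

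The IER genes kept the largest share of their summed level at 5 days, 33.4%, although at 3 days their 70.7% was below the 73.6% of EGR and the 87.6% of NR4A. Of these genes Ier3 had the lowest log2 ratio at 3 days. It had 2496, 1182 and 607 reads, at 148, 71.6 and 35.9 RPKM. Its log2 ratio was −1.04 (−1.14 to −0.94) at 3 days, an interval that spans the 2-fold line. Only 233 of 11322 genes had a lower ratio then. The log2 ratio was −0.99 (−1.14 to −0.85) from 3 to 5 days. At 5 days against 0 days it was −2.04 (−2.17 to −1.91), and 48.8% of this difference arose after 3 days. Ier3 belongs to the shorter genes, and its timing depends on this. With the length trend removed its log2 ratio was −0.70 at 3 days and −1.18 from 3 to 5 days, and 63.3% of the difference arose after 3 days.

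Ier2 and Ier5 declined late. Ier2 had 7591, 5752 and 2653 reads, at 317, 246 and 111 RPKM. Its log2 ratio was −0.36 (−0.41 to −0.32) at 3 days and −1.51 (−1.58 to −1.45) at 5 days, and it was the most abundant of the 9 members at 5 days. Ier5, related to Ier2, had 2370, 2158 and 1208 reads, at 46.7, 43.5 and 23.8 RPKM, and kept 51.0% of its starting level. Its log2 ratio was −0.10 (−0.18 to −0.01) at 3 days and −0.97 (−1.07 to −0.87) at 5 days, with 89.7% of the difference after 3 days.

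On the deposited scale the 3 IER genes differed from each other by more than counting error, at 3 and at 5 days against 0 days. At 3 days the log2 ratio of Ier2 minus that of Ier3 was 0.68 (0.57 to 0.79), and minus that of Ier5 it was −0.27 (−0.36 to −0.17). At 5 days these differences were 0.52 (0.38 to 0.67) and −0.54 (−0.66 to −0.42). From 3 to 5 days the ratio of Ier3 minus that of Ier5 was −0.12, with an interval from −0.30 to 0.05 that includes 0, while over the first 3 days it was −0.94 (−1.08 to −0.81). The gap between Ier2 and Ier5 depends on gene length. With the length trend removed their log2 ratios were −0.19 and −0.31 at 3 days, the reverse order, and −1.54 and −1.45 at 5 days. The share of Ier3 in the summed IER level went from 28.8% to 19.8% and then 21.0%. Ier5l, a relative of Ier5, had 99, 39 and 53 reads, at 4.06, 1.64 and 2.17 RPKM.

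By 5 days the order of the levels had changed around Egr1. Ier2 was highest, then Nr4a1, then Ier3 and Egr1 at 35.9 (33.1 to 38.9) and 34.2 RPKM (32.6 to 35.9), whose intervals overlapped. Ier5, Nr4a2 and Egr3 followed with no overlap between neighbours. Egr2 and Nr4a3 were last, at 0.564 (0.368 to 0.826) and 0.171 RPKM (0.0555 to 0.399), and these intervals overlapped. Before treatment Egr1, at 284 RPKM, had been well above Ier3, at 148 RPKM.

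Genes with a course most like that of the leading member of each family were found by the distance between their pairs of log2 ratios, at 3 and at 5 days against the same library of 0 days. The search covered the 3922 genes whose mean over the 3 libraries reached 20 RPKM. For Egr1, 8 genes lay within 0.5, among them Gadd45a (distance 0.30) and Trem1 (0.31). Gadd45a, a stress-induced gene of growth arrest, went from 233 to 145 and 31.8 RPKM. Trem1, a receptor of neutrophils and monocytes, went from 194 to 170 and 26.3 RPKM. For Nr4a1, 55 genes lay within 0.5, and the nearest were Trib1 (0.076), S100a8 (0.078) and Ifitm6 (0.104). S100a8, a calcium-binding protein that fills mature neutrophils, went from 28717 to 23982 and 7789 RPKM. For Ier2, 101 genes lay within 0.5, and the nearest were Csrnp1 (0.043), the histone gene Hist1h1c (0.105) and Dhrs7 (0.126). Csrnp1, itself an immediate early gene, went from 67.8 to 51.7 and 24.2 RPKM.

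Other immediate early genes were also mostly lower at 5 days. Of a list of 42 such genes, 40 reached the minimum at 5 days. Of these, 38 had a log2 ratio below 0, 29 were at least 2-fold lower and none at least 2-fold higher, and the median was −1.55. The share of all genes at least 2-fold lower was 5.91%. At 3 days 2 of 40 were at least 2-fold lower, near the 2.41% of all genes, with a median of −0.29. The most abundant were Zfp36, which encodes a protein that destabilises mRNAs of cytokines, the AP-1 gene Fos and Klf2. Zfp36 went from 1228 to 1055 and 395 RPKM, Fos from 700 to 890 and 319 RPKM, and Klf2 from 1147 to 617 and 92.8 RPKM. Klf4 and Myc, chosen after their values were seen, had log2 ratios above 0 at 5 days, of 0.10 and 0.38.

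Lists of genes that drive or restrain the members are short, so that a count of 0 lower genes in them is near the background of 5.91%, and 15.5% of all genes were at least 2-fold higher at 5 days. Of 16 transcription factors and coactivators upstream of immediate early genes, none was at least 2-fold lower at 5 days and 5 were at least 2-fold higher. Their median log2 ratio was 0.68. Removal of the length trend brought it to 0.12 and the number at least 2-fold higher to 3, where 5.03% of all genes were higher on that scale. The most abundant were Mef2d, at 24.9, 48.2 and 67.4 RPKM, then Atf1 and Crtc2. Of 17 genes of the RAS to ERK cascade, which passes growth factor signals to SRF partners, none was at least 2-fold lower and 1 was at least 2-fold higher at 5 days. The median was 0.30, close to that of all genes, and −0.16 with the length trend removed. The most abundant of these, Mapk3 (which encodes ERK1), went from 192 to 171 and 130 RPKM, and Mknk2 and Rps6ka1 had log2 ratios of 0.63 and 0.65 at 5 days. Of the co-regulators and partners of the members, 5 of 6 reached the minimum, none was at least 2-fold lower or higher at 5 days, and the median was 0.63, or 0.14 with the length trend removed. The most abundant were Rxrb, a partner of NR4A receptors, with a log2 ratio of 0.46, and 2 genes that act on single families. Hsf1, the partner of IER5, went from 14.3 to 17.2 and 26.9 RPKM, and Nab1, a repressor of EGR proteins, from 10.5 to 13.2 and 16.4 RPKM. These are levels of mRNA, and the activity of kinases and transcription factors was not measured.

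**Figure D4:**
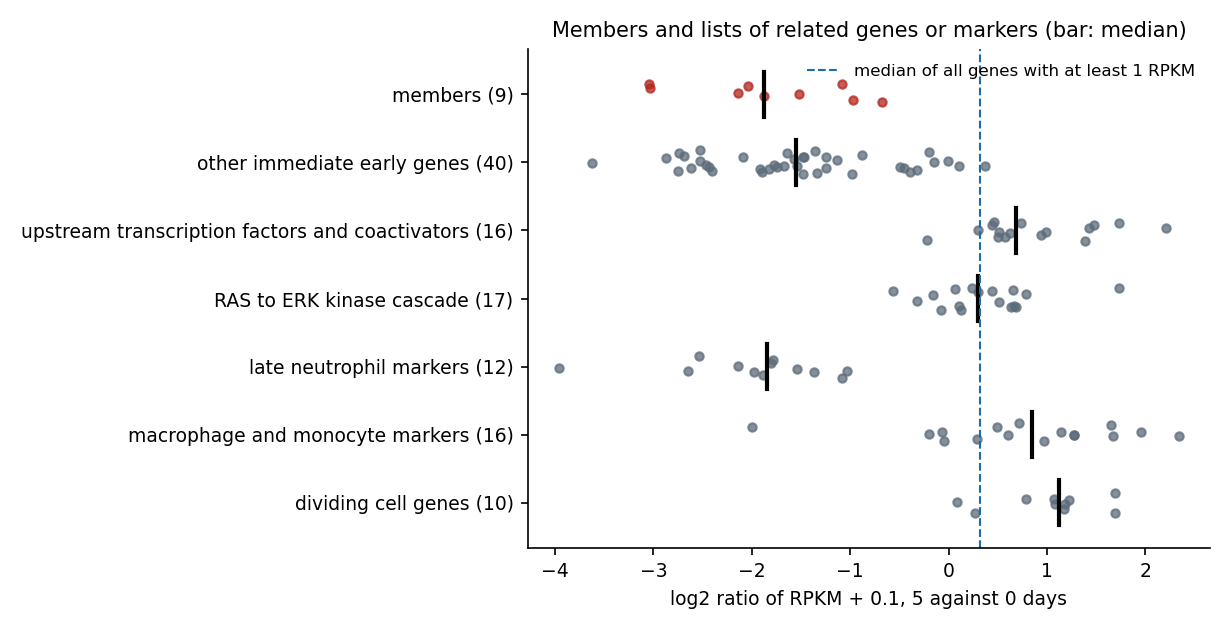
log2 ratio of RPKM + 0.1 at 5 against 0 days for the members (red) and for genes of 6 lists (grey), with the number of genes at or above 1 RPKM in brackets, black bars at the medians and a dashed line at the median of all genes (0.32). The members (median −1.87) and the other immediate early genes (−1.55) lie to the left, as do the late neutrophil markers (−1.84), while the upstream transcription factors (0.68) lie to the right.

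Markers of several BM cell types differed between the same libraries. At 0 days the library held the neutrophil marker S100a8 at 28717 RPKM and the B cell marker Cd79a at 827 RPKM. Of 13 late neutrophil markers, 12 reached the minimum, and at 5 days all 12 were at least 2-fold lower (5.91% of all genes). Their log2 ratios ran from −3.96 to −1.03, with a median of −1.84. Under TMM all 12 were at least 2-fold lower (10.1% of all genes), and with the length trend removed 11 were (7.62%). The summed level of the 13 markers went from 150311 to 116466 and 41582 RPKM. At 3 days none of the 12 was at least 2-fold lower or higher and the median was −0.08. Except for Egr3 and Ier5, the ratios of the members at 5 days lie inside the range of these markers. On the deposited scale the ratio of Ier3 at 3 days, −1.04, lies below their lowest ratio at that time, −0.87. Of 16 macrophage and monocyte markers, 7 were at least 2-fold higher at 5 days and 1 was at least 2-fold lower, with a median of 0.84 and a summed level of 1637, 1956 and 2472 RPKM. Under TMM 4 of them were at least 2-fold higher, with a median of 0.54, and with the length trend removed 5 were, with a median of 0.40. The share of all genes at least 2-fold higher was 15.5% on the deposited scale, 7.13% under TMM and 5.03% with the length trend removed. Of 10 genes of dividing cells, 7 were at least 2-fold higher at 5 days, with a median of 1.13. Under TMM and with the length trend removed 2 were, with medians of 0.82 and 0.75. Among endothelial and stromal markers, 5 of 8 were at least 2-fold lower (5.91% of all genes), with a median of −1.16. Of these 5, Bglap, with only 2 reads at 5 days, and Lepr reached the minimum only in the library of 0 days, where they were higher. Both were named after their values were seen. Under TMM 6 of 8 were lower (10.1% of all genes), with a median of −1.45, and with the length trend removed 5 were (7.62%), with a median of −1.84. The summed level of this list was 92.5 RPKM at 0 days and 62.6 RPKM at 5 days, of which Pecam1 alone held 38.1 and 41.7 RPKM. Medians at 5 days were −0.23 for 11 B cell markers, −0.36 for 12 T and NK cell markers, 0.40 for 6 promyelocyte markers and 0.09 for 6 erythroid markers. These depend on the scale, as the erythroid median was −0.21 under TMM and −0.19 with the length trend removed, and the promyelocyte median 0.09 and 0.66. The part of these shifts in the ratios of the members was not tested.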

How the data were processed

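RNA sequencing was analysed from 3 libraries of flushed mouse BM cells, 1 per time point, grouped by the day in the labels. The authors used Cufflinks for quantitation and the Illumina TruSeq kit, which does not mark strand. The aligner is not given in the sources used here, and per the labels the build was mm8. The authors deposited, for each pair of time points, whole read counts per gene and the RPKM made from them. For all members the RPKM equalled the counts divided by gene length and library total within 0.001 of its value. Genes without reads, listed at 0.01 RPKM, were set to 0. The tables also hold the authors' log2 ratios, directions, P values and false discovery rates, which were not used.

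A symbol listed more than once was represented by its most abundant row, and 28 rows without a symbol stayed in the library totals only. Log2 ratios used a pseudocount of 0.1 and were counted over genes with at least 1 RPKM in either library. Differences between members of a family were given as odds ratios of their reads with an exact conditional interval. No fold is printed against a library with 3 reads or fewer, but such genes stay in the counts and medians. Named genes were the 9 members, the 3 genes nearest to the most abundant member of each family and the 3 most abundant genes of each list, of which some are not reported here. The members and lists were chosen with earlier results of these data known. Alternatives were TMM (edgeR 4.0.16) and median-of-ratios (DESeq2 1.42.0) scaling, totals without the 100 most abundant genes, pseudocounts of 1 and 0.01, summed rows, a minimum of 5 RPKM or none, a 4-fold threshold and removal of the length trend (lowess, span 0.3, statsmodels 0.14.6). The log2 ratios, the minimum, the intervals of ratios and the removal of the length trend were tried on simulated Poisson counts for 0 and 5 days. The scalings, the differences between members, the search for nearest genes and the promoter search were not. Python 3.11.15, scipy 1.17.1, pandas 2.3.3 and R 4.3.3 were used. Protein sequences and promoters of the remaining members were not analysed here.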

Additional observations from a re-analysis of the deposited data

How the results depend on the processing

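With 1 library per time point, no setting can measure the spread between mice, and a library could not be left out. No paired analysis was possible because each time point has 1 library. No median of the members changed sign under any alternative. At 5 against 0 days the median was −2.18 with TMM, −2.17 with median-of-ratios scaling and −2.08 with totals without the 100 most abundant genes. The number at least 2-fold lower was 8 under these scalings (10.1%, 9.97% and 8.49% of all genes) and with the length trend removed (7.62%), and 5 with a pseudocount of 1 (4.18%). In the same comparison 4 members were lower by 4-fold (1.62% of all genes), Egr1, Egr2, Nr4a3 and Ier3. Of these, Egr2 and Nr4a3 reached the 1 RPKM minimum only in the library of 0 days, where they were higher. The intervals of Nr4a3 and Ier3 span the 4-fold line. At 5 against 3 days the median was −1.37 under TMM and under median-of-ratios scaling, −1.26 with the 100 most abundant genes out of the totals, −0.98 with a pseudocount of 1, −1.38 with the length trend removed and −1.07 with a minimum of 5 RPKM. There 3 members were at least 2-fold lower with that minimum, which 6 members reach (2.98% of all genes), and 3 were by 4-fold (0.923%). The 3 lower by 4-fold were Egr1, Egr2 and Nr4a3, of which Egr2 and Nr4a3 reached the 1 RPKM minimum only in the library of 3 days. Removal of the length trend gave a median of −0.31 at 3 against 0 days, and no member was lower by 2-fold with it or by 4-fold without it. Of the 27 ratios of single members, 14 moved past their counting interval under TMM, 17 with the length trend removed, 4 with a pseudocount of 1 and none with one of 0.01. The ratio of Nr4a3 at 5 against 0 days ranged from −2.61 with a pseudocount of 0.01 to −0.84 with one of 1. That of Egr2 ranged from −3.46 with the length trend removed to −2.02 with a pseudocount of 1. Apart from these settings, depth limits both genes, which had 5 and 26 reads at 5 days.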
